A study of Mus musculus with 6 samples.

Results

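The genes described here are 10 genes that make glutathione or decide how much lipid peroxide a cell holds. They are *Slc7a11* and *Slc3a2* (cystine import), *Gclc*, *Gclm* and *Gss* (glutathione synthesis), *Gpx4* and *Gpx1* (peroxide repair), *Acsl4* and *Lpcat3* (lipid remodelling) and *Aifm2* (quinone reduction). They were chosen by name for these roles, and each matched 1 of the 57180 genes in the deposited count table. RNA was sequenced from osteoclast precursors (OCPs) of wild-type C57BL/6 (WT) mice and of *lincRNA-EPS* knockout (KO) mice, with 3 libraries per genotype. The KO mice lack the long noncoding RNA in the whole animal, so the bone marrow that the cells came from had also developed without it. OCPs were grown from bone marrow-derived macrophages (BMDMs), first for 24 h with 40 ng/ml of M-CSF, the growth factor of macrophages. RANKL, the cytokine that turns macrophages towards osteoclasts, was then added at 40 ng/ml for 48 h, to WT and KO cells alike, and the LPS that other experiments of the study used is not part of these samples. The replicates are described as biologically independent, but the number of animals behind each culture and their age are not given for this experiment.

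Glutathione is the main small thiol of the cell, built from glutamate, cysteine and glycine. Cysteine is usually the limiting part, and macrophages take it up as cystine through the antiporter xCT, which is *Slc7a11* bound to its chaperone *Slc3a2*. The enzyme *Gpx4* spends glutathione to reduce peroxides inside membrane phospholipids, and when it fails in the presence of iron, these peroxides spread and the cell dies by ferroptosis. Polyunsaturated fatty acids are the lipids that peroxidise, and *Acsl4* and *Lpcat3* put them into phospholipids. Reactive oxygen species are also known as signals in osteoclast differentiation, and osteoclast precursors take up much iron.

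Total estimated counts ran from 17757351 to 19998611 per library. LincRNA-EPS, listed as *Ttc39aos1*, was counted 20, 37 and 41 times in the WT libraries and 0 times in every KO library, so the libraries carried the genotype of their labels. Levels are given as normalized counts, abbreviated CPM, which are counts per 1000000 counts of a library after TMM scaling. Genotypes were compared by the quasi-likelihood test of edgeR over 13428 genes with enough counts, and a gene was called when its adjusted p was under 0.01 and its fold change exceeded 1.3, which is 0.38 on the log2 scale. This limit is a reading of the study's criterion, and with 1.3 taken on the log2 scale 0 members and 0 other genes of the pathway were called by edgeR or DESeq2, with or without the correction for GC content. SE is the standard error of a log2 fold change, and adjusted p-values are edgeR's unless another tool is named. All 10 members passed the filter on low counts. Library differences followed the GC content of transcripts, and over 13176 tested genes the log2 ratio of KO to WT had r = -0.510 with GC content. The genes share the same 6 libraries and are not independent replicates, so this r is a description. In the order of replicates 1, 2 and 3, the deviations of the WT libraries had r = 0.224, 0.606 and 0.271 with GC content. Those of the KO libraries had r = 0.061, -0.116 and -0.653. Every WT value was above every KO value, so the trend also ran between the genotypes, and its removal changes their comparison. WT replicate 2 and KO replicate 3 stood apart most, in opposite directions. The members span from 39.0% GC in *Acsl4* to 60.2% in *Gpx4*, so each fold change is given both uncorrected and after each library's trend with GC content had been removed. Whether the trend is technical or part of the genotype was not tested.

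**Figure D1:**
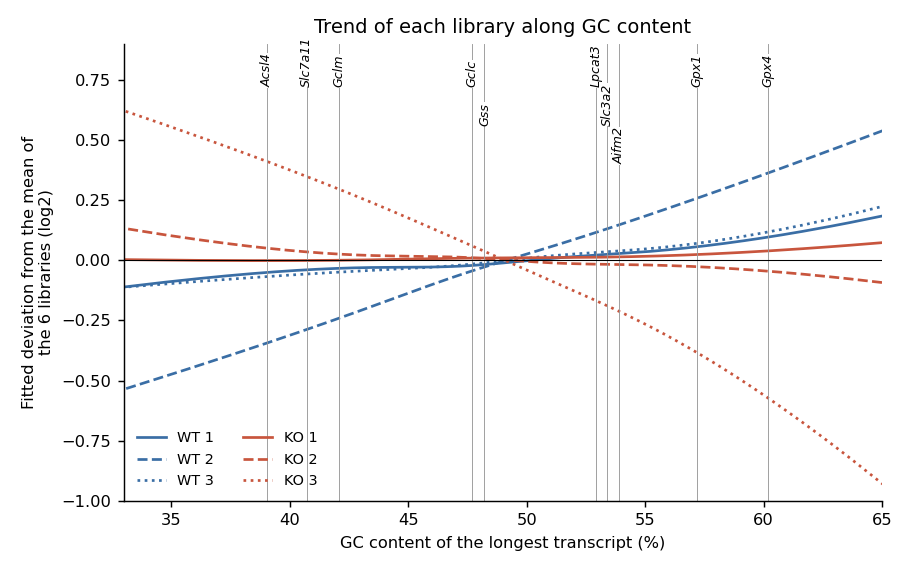
Fitted deviation of each library from the mean of the 6 libraries (log2, vertical axis) along the GC content of the longest transcript (%, horizontal axis), with WT in blue and KO in red and a grey line at the GC content of each member. At *Gpx4* the fitted deviation was 0.36 in WT replicate 2 and -0.57 in KO replicate 3, at *Acsl4* it was -0.34 and 0.41, and near *Gclc* and *Gss* the 6 lines meet.

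The members differed widely in level. Per kb of the longest transcript, *Gpx1* was highest in WT with 597 ± 19.9 CPM per kb, followed by *Gpx4* with 239 ± 16.0 and *Slc3a2* with 83.7 ± 8.35 (SD, n = 3). *Gclm* came next with 47.7 ± 1.93 CPM per kb in WT. *Lpcat3* (24.4 ± 1.11), *Gclc* (24.0 ± 1.11) and *Acsl4* (22.4 ± 2.72) followed with overlapping WT libraries, so their order is not resolved on this scale. *Aifm2* had 12.4 ± 0.452, *Gss* 10.9 ± 0.960 and *Slc7a11* 9.29 ± 0.926 CPM per kb in WT, and the last 2 overlapped. In KO the same genes held the first 4 and the last 3 places, and *Acsl4* stood before *Lpcat3* and *Gclc*, with KO libraries that overlapped between neighbours among these 3 and between *Aifm2* and *Gss*. The longest transcript of a gene may not be the one these cells use. At these levels counting error is small, since the lowest count of any member in any library was 610, for *Gss* in WT replicate 3.

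Cystine import was examined first. *Slc7a11* (ENSMUSG00000027737, chromosome 3 from 49892526 to 50443614 on the minus strand in GRCm38) encodes the light chain of xCT that carries cystine in against glutamate. In the order of replicates 1, 2 and 3, it had 92.7, 76.1 and 88.1 normalized counts in WT and 76.7, 64.9 and 82.5 in KO, and the same order is kept for every gene. The genotypes overlapped, since KO replicates 1 and 3 were above WT replicate 2. Its log2 fold change was -0.20 ± 0.12 (SE, adjusted p = 0.313). *Slc7a11* is poor in GC (40.7%), where WT replicate 2 was low and KO replicate 3 high over the whole transcriptome. After the GC correction it had 95.2, 92.9 and 91.7 normalized counts in WT and 76.7, 63.3 and 64.8 in KO. The genotypes then no longer overlapped, and the spread within WT had narrowed from a SD of 0.15 to 0.028 on the log2 scale. The corrected log2 fold change was -0.45 ± 0.084 (SE), with an adjusted p = 0.0474 from edgeR, which is not past the limit of 0.01. DESeq2 with the same correction called *Slc7a11* (log2 fold change -0.45, adjusted p = 0.000714), and without the correction it did not (adjusted p = 0.320). With a library left out, in fits added after the data were seen, edgeR with the correction called it in 1 of 6, the one without KO replicate 1 (-0.54, adjusted p = 0.00810). That fit called 89 genes in all, 77 of them lower, against 3 with all libraries, and in the other 5 the adjusted p of *Slc7a11* was 0.0725 to 0.183.

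The promoter of *Slc7a11* is shown because it carries a motif 2 times in a short stretch. It reads on the strand of the gene from 90 to 31 bases before the RefSeq start site (chr3:50443644-50443703, minus strand, GRCm38.p6), with capitals for matches to TGATGNAA, the core of the amino acid response element, searched on both strands.
Slc7a11: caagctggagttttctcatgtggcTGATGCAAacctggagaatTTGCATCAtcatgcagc
This element is bound by *Atf4* and its partners when amino acids are short. The first match lies 66 to 59 bases before the start on the strand of the gene, and the second 47 to 40 bases before it on the opposite strand. Of 32851 promoter windows of 300 bases, 3.97% held at least 1 match and 0.0700% held 2 or more. None of the other member windows held one, and a match of letters does not show that a factor binds there.

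*Slc3a2* (ENSMUSG00000010095, chromosome 19 from 8706882 to 8723369, minus strand) encodes the heavy chain that brings xCT and several other amino acid transporters to the membrane. Its normalized counts were 219, 262 and 225 in WT and 211, 209 and 179 in KO. Every KO library was below every WT library, with a narrow margin between WT replicate 1 and KO replicate 1. The fitted log2 fold change was -0.24 ± 0.11 (SE, adjusted p = 0.206). With 53.4% GC this gene lies on the other side of the trend from *Slc7a11*, and the correction moved the 2 chains of xCT apart. The corrected log2 fold change of *Slc3a2* was -0.11 ± 0.066 (SE, adjusted p = 0.315), with 215, 239 and 220 normalized counts in WT and 210, 211 and 204 in KO.

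Glutathione synthesis begins with glutamate-cysteine ligase, whose catalytic subunit is *Gclc* and whose modifier subunit is *Gclm*. *Gclc* (ENSMUSG00000032350, chromosome 9 from 77754535 to 77794485, plus strand) had 78.2, 82.8 and 85.8 normalized counts in WT and 71.2, 66.1 and 73.8 in KO. The genotypes did not overlap. Its log2 fold change was -0.22 ± 0.092 (SE, 95% interval from -0.43 to -0.015, adjusted p = 0.173). *Gclc* was the only member with an unadjusted p-value under 0.05 in this test, and with a library left out it stayed under 0.05 in 1 of 6 fits, the one without KO replicate 3 (log2 fold changes from -0.26 to -0.18). It lies close to the middle of the GC range (47.7%), where the 6 libraries hardly differ, and the GC correction moved its log2 fold change only to -0.28 ± 0.069 (SE, adjusted p = 0.0719). That is a shift of -0.055, against -0.25 for *Slc7a11* and -0.22 for *Gclm*.

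*Gclm* (ENSMUSG00000028124, chromosome 3 from 122245557 to 122270732, plus strand) had 268, 255 and 276 normalized counts in WT and 225, 231 and 260.0 in KO. KO replicate 3 was above WT replicate 2, and the log2 fold change was -0.16 ± 0.094 (SE, adjusted p = 0.299). KO replicate 3 and WT replicate 2 are the libraries that stand apart most with GC content, and the transcript has 42.1% GC. After the correction *Gclm* had 274, 301 and 286 normalized counts in WT and 225, 227 and 212 in KO, with no overlap. The corrected log2 fold change was -0.38 ± 0.066 (SE, adjusted p = 0.0433 from edgeR). DESeq2 with the correction gave an adjusted p = 0.000404, and the gene was not called because its fold change lay just short of 1.3. Its exons share 296 bases with *Gm17494* on the opposite strand and 244 with the pseudogene *Gm6061* on the same strand. *Gm6061* had 16 counts in KO replicate 3 and 0 in the other libraries, against at least 4019 counts for *Gclm* in every library.

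The promoter of *Gclm* is shown for its match to TGACNNNGC, the core of the antioxidant response element that Nrf2 (*Nfe2l2*) uses. The stretch runs from 160 to 101 bases before the start (chr3:122245397-122245456, plus strand, GRCm38.p6), with the match in capitals, which reads TGACNNNGC on the opposite strand.
Gclm: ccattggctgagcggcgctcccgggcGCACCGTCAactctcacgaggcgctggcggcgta
The match lies 134 to 126 bases before the start. It is a common motif, held by 12.4% of all windows, and among the 12 windows of the 9 members found in the RefSeq table it occurred only in that of *Gclm*. *Gclc* was not in the table.

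*Gss* (ENSMUSG00000027610, chromosome 2 from 155563181 to 155592810, minus strand) adds glycine in the last step. It had 36.2, 38.1 and 32.0 normalized counts in WT and 35.5, 37.4 and 35.2 in KO, and all KO libraries lay within the range of WT. The log2 fold change was 0.024 ± 0.10 (SE, 95% interval from -0.21 to 0.26), and -0.013 after the GC correction (standard error 0.088). *Gss* shares 395 exonic bases with *Acss2* on the opposite strand, which had 133 to 223 counts in a library against 610 to 721 for *Gss* and a log2 fold change of -0.43, and the strand setting of the counting is not given in the sources used here.

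Peroxide repair was measured through 2 selenoproteins. *Gpx1* (ENSMUSG00000063856, chromosome 9 from 108338903 to 108340343, plus strand) is the abundant cytosolic glutathione peroxidase, and *Gpx4* (ENSMUSG00000075706, chromosome 10 from 80047166 to 80056439, plus strand) is the one that acts on phospholipids in membranes. Both enzymes use selenocysteine, which is encoded by a TGA codon that otherwise stops translation. The codon (capitals) and the 12 bases before and 15 after it are shown on the strand of the gene, read from GRCm38, because they mark the catalytic residue that both share.
Gpx1: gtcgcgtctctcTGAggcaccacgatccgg
Gpx4: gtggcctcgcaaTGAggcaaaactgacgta
In *Gpx1* it is codon 47 of 201, in exon 1 of 2 (chr9:108339451-108339453), and in *Gpx4* codon 129 of 253 of the transcript ENSMUST00000097227, in exon 3 of 7 (chr10:80054737-80054739). Of the 30 bases, 17 are identical between the genes.

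*Gpx4* had 241, 221 and 253 normalized counts in WT and 252, 273 and 209 in KO. KO replicate 3 was the lowest library and KO replicate 2 the highest, so the WT range lay inside that of KO. With this spread, the log2 fold change was 0.039 ± 0.12 (SE, 95% interval from -0.23 to 0.30, adjusted p = 0.846). After the GC correction it had 225, 172 and 233 normalized counts in WT and 246, 281 and 311 in KO, which no longer overlapped. The corrected log2 fold change was 0.41 ± 0.12 (SE, adjusted p = 0.0976 from edgeR and 0.0149 from DESeq2), and it was not called. The correction widened the WT replicates, whose SD went from 0.097 to 0.24 on the log2 scale, while that of the KO replicates went from 0.20 to 0.17. *Gpx4* has the highest GC content of the members, and in KO replicate 3 the correction raised its level by 0.57 on the log2 scale.

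*Gpx1* also overlapped between genotypes before the correction and not after it. It had 644, 617 and 659 normalized counts in WT and 652, 695 and 640.4 in KO, with a log2 fold change of 0.050 ± 0.089 (SE, 95% interval from -0.15 to 0.25, adjusted p = 0.738). The GC-corrected levels were 619, 516 and 627 in WT and 641, 708 and 835 in KO, and the log2 fold change became 0.31 ± 0.11 (SE, adjusted p = 0.134). The SD within KO went from 0.062 to 0.19 on the log2 scale. Before the correction *Gpx1* was the steadiest of the members within genotype, and after it only *Gpx4* was more spread. This differs from most genes as rich in GC, since 82.4% of the 1566 tested genes with at least 57% GC had a smaller SD within genotype after the correction. For the 2 peroxidases the uncorrected and the corrected values are therefore both given, and neither was called.

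**Figure D2:**
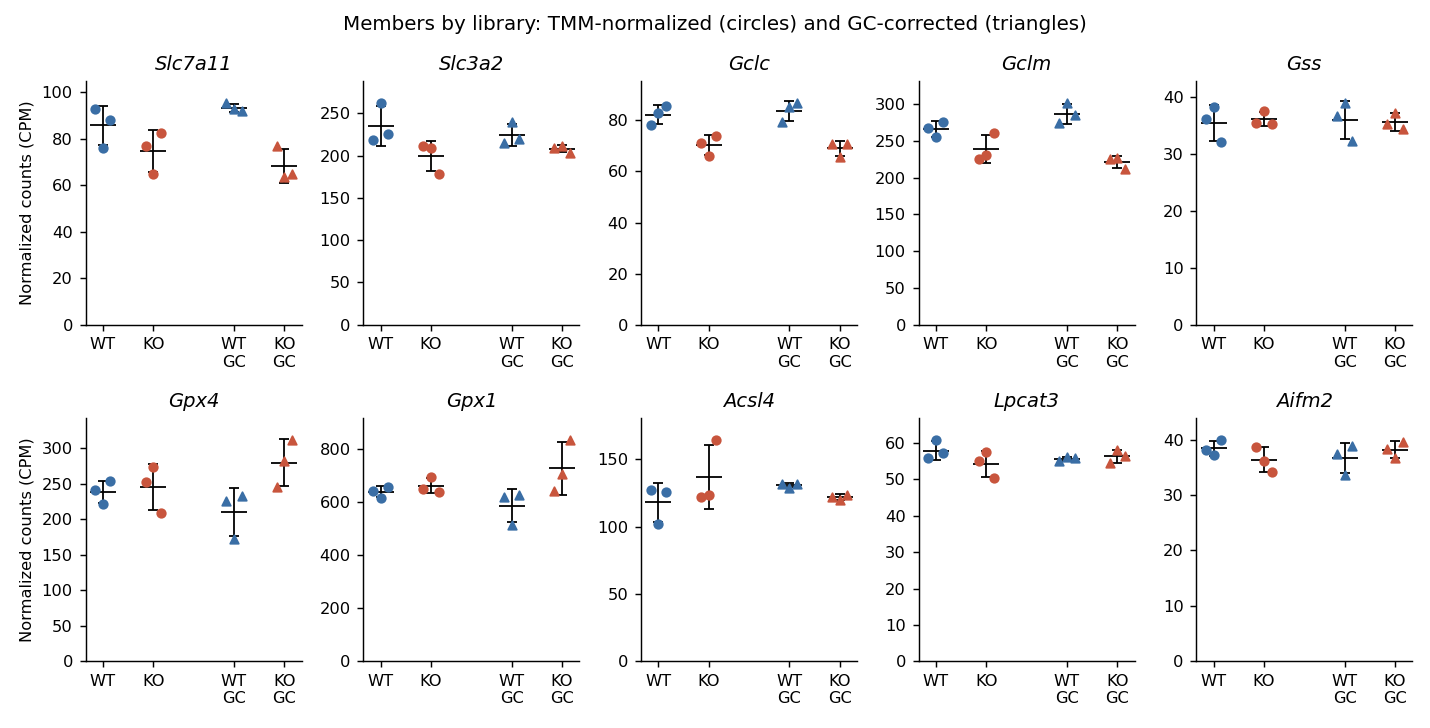
Normalized counts (CPM, vertical axis from 0) of each member in WT (blue) and KO (red), as TMM-normalized values (circles) and after the GC correction (triangles), with a horizontal bar for the mean and error bars for the SD of 3 libraries. The correction pulls the libraries of a genotype together for *Slc7a11* in WT and for *Acsl4*, where 3 KO libraries then lie between 119 and 123, and spreads them for *Gpx4* in WT and for *Gpx1* in both genotypes.

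Lipid remodelling was represented by *Acsl4* and *Lpcat3*. *Acsl4* (ENSMUSG00000031278, chromosome X from 142317993 to 142390535, minus strand) activates arachidonic and adrenic acid by joining them to coenzyme A. It had 127, 102 and 126 normalized counts in WT and 122, 124 and 164 in KO. The high KO library was replicate 3 and the low WT library was replicate 2, and the other 4 lay between 122 and 127. The log2 fold change was 0.21 ± 0.14 (SE, adjusted p = 0.354), and it was 0.058 without KO replicate 3 and 0.11 without WT replicate 2. With 39.0% GC *Acsl4* is the member poorest in GC, and after the correction the sign turned. It then had 132, 129 and 132 normalized counts in WT and 122, 119 and 123 in KO, and the log2 fold change was -0.10 ± 0.058 (SE, 95% interval from -0.23 to 0.028, adjusted p = 0.291). The corrected libraries did not overlap and the SD within genotype was 0.022 on the log2 scale, where it had been 0.21.

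*Lpcat3* (ENSMUSG00000004270, chromosome 6 from 124663027 to 124704418, plus strand) places the activated fatty acids into lysophospholipids. Its normalized counts were 55.7, 60.8 and 57.1 in WT and 55.0, 57.4 and 50.3 in KO, which overlapped. The log2 fold change was -0.094 ± 0.096 (SE, adjusted p = 0.539) and 0.019 after the GC correction (standard error 0.065, 95% interval from -0.13 to 0.16). *Lpcat3* shares 334 exonic bases with *Emg1* on the opposite strand, which had a log2 fold change of 0.29. *Emg1* had 1322 to 1876 counts in a library, against 987 to 1111 for *Lpcat3*. Whether reads of *Emg1* entered the counts of *Lpcat3* was not tested.

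*Aifm2* (ENSMUSG00000020085, chromosome 10 from 61715263 to 61739260, plus strand), also called FSP1, reduces coenzyme Q in membranes and stops lipid radicals without glutathione. It had 38.1, 37.2 and 39.9 normalized counts in WT and 38.7, 36.2 and 34.2 in KO, again with overlap. The log2 fold change was -0.079 ± 0.098 (SE, adjusted p = 0.618) and 0.061 after the GC correction (standard error 0.081, 95% interval from -0.12 to 0.24). *Aifm2* shares 233 exonic bases with *H2afy2* on the opposite strand, which had at most 28 counts in a library.

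In edgeR's test 0 of the 10 members were called, where 0.00745% of all genes tested were called. DESeq2 and limma-voom without the GC correction also called 0, with 1.16% and 0.00745% of all genes called. At an unadjusted p-value under 0.05, 1 member (*Gclc*) was lower and 0 were higher, beside 26.2% of all genes in either direction and 13.2% lower. For *Gclc* and *Slc3a2* the genotypes did not overlap, both with KO lower, beside 35.7% of all genes in either direction, 18.8% lower and 16.9% higher. Of the log2 fold changes 6 were below 0 and 4 above. Their median was -0.087 (-0.039 without KO replicate 3), that over all genes tested was 0.0092, and the members lay between -0.24 for *Slc3a2* and 0.21 for *Acsl4*. These counts were below or near the shares among all genes.

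With the GC correction the members spread further, from -0.45 for *Slc7a11* to 0.41 for *Gpx4*, around a median of -0.058 (-0.031 without WT replicate 2 and -0.095 without WT replicate 3). edgeR again called 0 of 10, beside 0.0223% of all genes. At an unadjusted p-value under 0.05, 3 were lower and 2 higher, beside 25.8% of all genes in either direction and 13.8% lower. With a limit of 0.05 on the adjusted p and none on the fold change, *Slc7a11* and *Gclm* passed, both lower in KO, beside 0.983% of all genes. With a library left out, each of them passed this limit in 1 of 6 fits, the one without KO replicate 1, and the highest adjusted p was 0.183 for *Slc7a11* and 0.160 for *Gclm*. In that same fit *Gclc* (adjusted p = 0.0361), lower in KO, and *Gpx4* (adjusted p = 0.0382) and *Gpx1* (adjusted p = 0.0476), higher in KO, also passed 0.05, and none of these 3 did in the other fits. DESeq2 with the correction called 1 member, *Slc7a11*, beside 3.2% of all genes tested in either direction and 1.53% lower. The libraries of 7 members did not overlap, beside 32.2% of all genes, 17.5% lower and 14.7% higher. Of these, *Slc7a11*, *Slc3a2*, *Gclc*, *Gclm* and *Acsl4* were lower and *Gpx4* and *Gpx1* higher in KO. The SD within genotype was smaller after the correction for 6 of the 10 members and for 68.2% of all genes with enough counts.

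**Figure D3:**
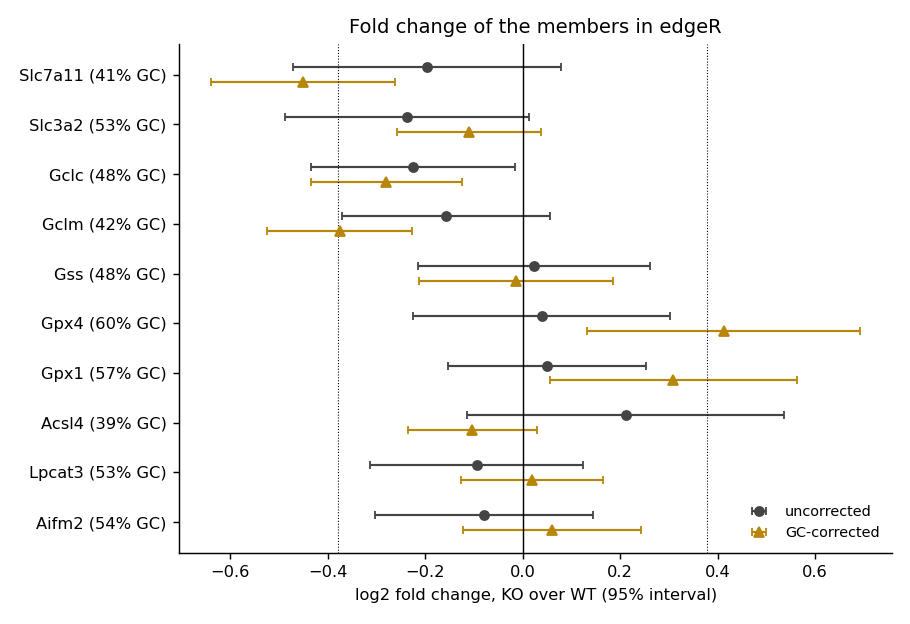
Log2 fold change of KO over WT for each member in edgeR (points) with its 95% interval (bars), uncorrected (grey circles) and GC-corrected (gold triangles), with dotted lines at the fold change limit of 1.3. Uncorrected, only the interval of *Gclc* leaves out 0, and after the correction those of *Slc7a11*, *Gclc* and *Gclm* lie below 0 and those of *Gpx4* and *Gpx1* above it.

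**Figure D4:**
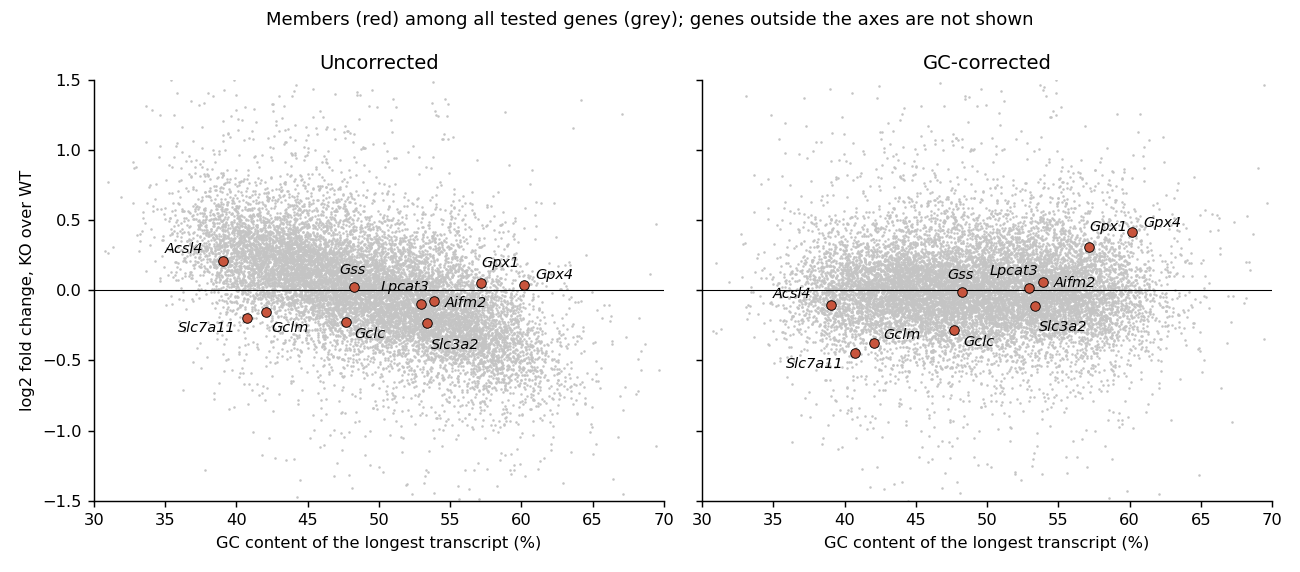
GC content of the longest transcript (%, horizontal axis) against the log2 fold change of KO over WT (vertical axis) for all tested genes with a GC value (grey) and the members (red), uncorrected on the left and GC-corrected on the right. On the left the grey cloud falls with GC content (r = -0.510) and the members lie near a level line, *Slc7a11* and *Gclm* under the cloud and *Gpx1* and *Gpx4* in its upper part. On the right the cloud is level (r = -0.0152) and the same 4 genes lie away from 0.

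A ratio of 2 members with like GC content in the same library is less open to the trend, though not free of it. All 6 pairs of members whose GC content differs by less than 2 points were taken, a choice made after the data were seen, and values are given with no test. The log2 ratio of *Slc7a11* to *Acsl4* was -0.46, -0.42 and -0.51 in WT and -0.67, -0.93 and -0.99 in KO. Every KO ratio was below every WT ratio, and the means differed by -0.40 (-0.35 from GC-corrected levels). The ratio of *Gclc* to *Gss*, the first and last enzymes of glutathione synthesis, was 1.11, 1.12 and 1.42 in WT and 1.01, 0.82 and 1.07 in KO. These did not overlap either, and the difference in means was -0.25 (-0.27 corrected). *Slc3a2* to *Lpcat3* also had no overlap, with a difference of -0.14 (-0.13 corrected). The ratios of *Slc7a11* to *Gclm* (difference -0.040), *Slc3a2* to *Aifm2* (-0.16) and *Lpcat3* to *Aifm2* (-0.015) overlapped between genotypes. For tested genes next to each other in GC content, most of which are closer than these pairs, 30.1% of ratios did not overlap, and 3 of 6 is a description of these pairs only. The pairs share members and libraries.

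The other genes of the pathway were counted by role in 9 lists of 118 genes, of which 110 were tested. edgeR called 0 of them with or without the GC correction. At an unadjusted p-value under 0.05, 18 were higher and 16 lower, which is 34 of 110 beside 26.2% of all genes. After the GC correction 24 were higher and 14 lower, beside 12.0% and 13.8% of all genes. The median log2 fold change over these genes was -0.0021.

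Glutathione use and reduction covers the transferases, glutaredoxins and glyoxalases that use glutathione and the reductase that restores it. Of its 18 tested genes 16 were above 0, beside 51.0% of all genes. The median was 0.21, against 0.0092 for all genes. At an unadjusted p-value under 0.05, 5 were higher and 0 lower, beside 13.0% and 13.2% of all genes. *Glo1*, which detoxifies methylglyoxal with glutathione, had 42.5, 38.3 and 42.5 normalized counts in WT and 45.6, 52.0 and 61.4 in KO (log2 fold change 0.37, adjusted p = 0.151, and 0.26 after the GC correction). *Glrx2*, the mitochondrial glutaredoxin, had a log2 fold change of 0.34 with no overlap between genotypes, and after the correction 0.18 with overlap. The transferase *Gstt1* had 0.45, and 0.61 after the correction, with no overlap in either form. Corrected, the median of the list was 0.20. In the list of cysteine supply and glutathione turnover 7 of 10 tested genes were above 0, with a median of 0.087. The membrane peptidase *Anpep*, which splits the dipeptide left from glutathione outside the cell, had a log2 fold change of -0.26 (adjusted p = 0.180), and -0.13 after the correction. *Oplah* and *Ggt5*, both under 3 normalized counts, had -0.68 and -0.32, and -0.38 and -0.26 after it. The corrected median of this list was 0.032.

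The peroxidases outside the members were split, with 4 of 8 above 0. *Prdx3*, the mitochondrial peroxiredoxin, had 90.2, 75.9 and 89.3 normalized counts in WT and 97.1, 114 and 115 in KO (log2 fold change 0.36, adjusted p = 0.147 from edgeR, and 0.24 after the correction). Catalase (*Cat*) had 411, 444 and 438 in WT and 372, 342 and 377 in KO (log2 fold change -0.25, adjusted p = 0.157 from edgeR, and -0.27 after the correction). The secreted *Gpx3* had -0.42 with no overlap, and -0.20 with overlap once corrected. In the thioredoxin list, 3 of 8 were above 0, and the median was -0.034 before and 0.11 after the GC correction. At an unadjusted p-value under 0.05, 1 was higher and 1 lower before it, and 3 were higher and 0 lower after it, beside 12.0% higher among all genes once corrected. Thioredoxin itself (*Txn1*) had a log2 fold change of 0.41 and its inhibitor *Txnip* 0.21, or 0.35 and 0.18 once corrected. *Srxn1*, which repairs oxidised peroxiredoxins, had -0.20 and, corrected, -0.067. Selenoprotein synthesis, which *Gpx1* and *Gpx4* depend on, had a median of -0.068 over 8 genes and of -0.0082 after the GC correction. *Sephs1*, *Sepsecs* and *Scly* had log2 fold changes of 0.27, 0.24 and -0.21, and of 0.15, 0.072 and -0.057 once corrected.

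NADPH supply, which keeps glutathione reduced, had 3 of 8 genes above 0 and a median of -0.11. *G6pdx*, the first enzyme of the pentose phosphate pathway, had 324, 338 and 324 normalized counts in WT and 278, 278 and 291 in KO (log2 fold change -0.22, adjusted p = 0.161, and -0.11 with overlap after the correction). *Tkt* and *Pgd* of the same pathway had -0.31 and -0.14, and -0.17 each after it. Uncorrected, all 3 had libraries that did not overlap, and 4 of the 8 genes of the list were lower without overlap, beside 18.8% of all genes. Radical-trapping lipids and quinones had 8 of 17 above 0. At an unadjusted p-value under 0.05 in edgeR, 5 were higher and 1 lower, beside 13.0% and 13.2% of all genes. After the correction 5 were higher and 2 lower, beside 12.0% and 13.8%. Uncorrected, 6 were higher and 2 lower without overlap, beside 16.9% and 18.8% of all genes. *Coq3* and *Pdss1*, which make coenzyme Q, the substrate of *Aifm2*, had 0.51 and 0.58, each with adjusted p = 0.147 from edgeR, and 0.35 and 0.28 after the correction.

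Among the lipid genes 16 of 24 were below 0, with a median of -0.094 and of -0.13 after the GC correction. At an unadjusted p-value under 0.05, 6 were lower and 2 higher, beside the same 13.2% and 13.0% of all genes. *Acsl3*, which activates fatty acids that include monounsaturated ones, had a log2 fold change of 0.48, the desaturase *Fads2* -0.48 and the oxidoreductase *Por* -0.49, each with adjusted p = 0.147 in edgeR. Corrected, these were 0.29, -0.32 and -0.19. The list of regulators had 3 of 9 genes above 0 and 6 below, with a median of -0.12 and of -0.0084 after the GC correction. At an unadjusted p-value under 0.05 in edgeR, 1 was higher and 3 lower, beside 13.0% and 13.2% of all genes. Once corrected, 2 were higher and 3 lower, beside 12.0% and 13.8% of all genes. The smallest p-value of all 9 lists was that of *Atf3*, a stress-induced transcription factor that is known to repress *Slc7a11*. It had 80.5, 83.4 and 76.5 normalized counts in WT and 54.8, 59.7 and 56.9 in KO, far from overlap. Its log2 fold change was -0.49 ± 0.090 (SE, adjusted p = 0.136) and -0.39 after the GC correction (adjusted p = 0.0485). DESeq2 called it at the same limits both without the correction (adjusted p = 0.000706) and with it (adjusted p = 0.00208). *Keap1*, which holds Nrf2 down, had -0.51 and, after the correction, -0.24. *Bach1*, a repressor of *Gclm* and other Nrf2 targets, had 122, 125 and 121 normalized counts in WT and 104, 97.5 and 106 in KO (log2 fold change -0.26, adjusted p = 0.147, and -0.35 after the correction, adjusted p = 0.0474 from edgeR).

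**Figure D5:**
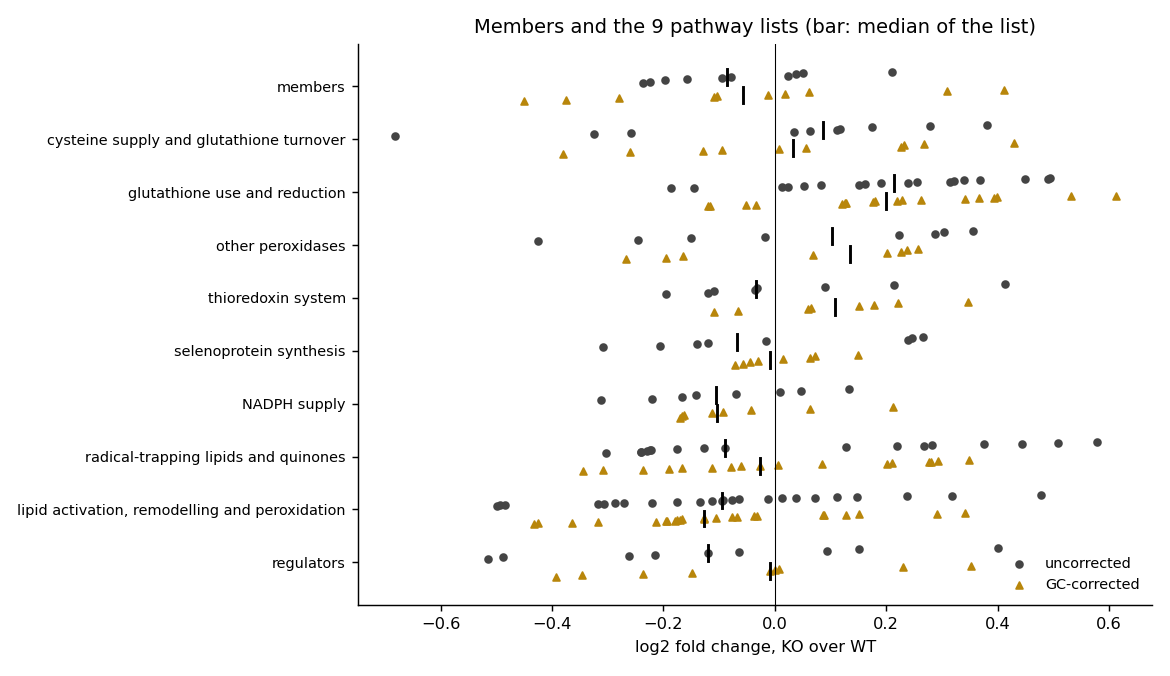
Log2 fold change of KO over WT (horizontal axis) of each tested gene in the members and in 9 lists by role (rows), uncorrected (grey circles) and GC-corrected (gold triangles), with a black bar at each median. Glutathione use and reduction has the highest median in both forms (0.21 and 0.20), and the other lists and the members lie within 0.14 of 0.

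With the GC correction, 4 of these 110 genes passed an adjusted p-value of 0.05 in edgeR, beside 0.983% of all genes, namely *Atf3* and *Bach1* and 2 that are named because of this result, *Cybb* (-0.43, adjusted p = 0.0431) and *Lpcat1* (0.34, adjusted p = 0.0431). *Cybb* encodes the superoxide-producing oxidase of phagocytes, and *Lpcat1* another lysophospholipid acyltransferase. DESeq2 with the correction called *Atf3* and *Cybb*. Of the deposited table's own terms, the KEGG pathway of glutathione metabolism had 42 of 71 genes tested. Their median was 0.056, and edgeR and DESeq2 called 0. Of the 42, 29 were above 0, beside 51.0% of all genes. At an unadjusted p-value under 0.05 in edgeR, 4 were higher and 4 lower. After the GC correction 11 were higher and 4 lower, beside 12.0% and 13.8% of all genes. The KEGG pathway of ferroptosis had 35 of 40 genes tested, with a median of -0.076 and 0 called by edgeR. DESeq2 called 2, *Hmox1* lower and *Tfrc* higher in KO, beside 1.16% of all genes. With the GC correction DESeq2 called *Slc7a11* and *Cybb* there, both lower, beside 3.20% of all genes called in either direction. These pathways hold 5 and 8 of the members.

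The cells carried the markers of macrophages on the way to osteoclasts. All 12 markers of that list were tested, and their summed level was 8305 to 9144 normalized counts in WT and 9483 to 10138 in KO. Within it *Ctsk*, *Dcstamp* and *Acp5* were above WT in every KO library (log2 fold changes 0.77, 0.84 and 0.38), beside 16.9% of all genes. *Csf1r*, *Adgre1*, *Itgam* and *Fcgr1* were below it (-0.27, -0.29, -0.25 and -0.64), beside 18.8%. Both held with the GC correction. *Cd68* overlapped (-0.0035). edgeR called 0 of the 12, and with the correction 1, *Dcstamp* (adjusted p = 0.00492), beside 0.0223% of all genes. DESeq2 without it called 2 higher and 1 lower, beside 1.16%. The osteoclast markers *Nfatc1*, *Tnfrsf11a*, *Ocstamp* and *Mmp9* overlapped between genotypes (log2 fold changes 0.033, -0.0088, 0.19 and 0.28), and after the correction *Ocstamp* and *Mmp9* did not (0.31 and 0.46). Of 9 markers of neutrophils, 8 were tested and edgeR called 0, with a lowest adjusted p of 0.120. DESeq2 called 4 at the same limits, all higher in KO, beside 1.16% of all genes. With the GC correction DESeq2 called 5, again all higher, beside 3.2% of all genes. Of the 8, 6 were above 0, beside 51.0% of all genes, and 5 were higher and 1 lower with an unadjusted p-value under 0.05, beside 13.0% and 13.2% of all genes. In each KO library their summed level was above that of every WT library, at 1676 to 2017 normalized counts against 1255 to 1413. *S100a8*, *S100a9*, *Cxcr2*, *Ngp* and *Ltf* were above WT in every KO library, which is 5 of 8 beside 16.9% of all genes. *Mpo* and *Elane* were below WT in every KO library (log2 fold changes -0.42 and -0.33), which is 2 of 8 beside 18.8%. The defining surface marker *Ly6g* was at most 0.251 normalized counts. After the GC correction *Mpo* and *Elane* overlapped (-0.19 and -0.087), and 6 of the 8 genes were higher and 0 lower without overlap, beside 14.7% and 17.5% of all genes. Summed over their lists, erythroid and T cell markers reached at most 0.682 normalized counts, B cell markers 8.05, stromal markers 19.6 and those of mast cells and basophils 2.99, the last at 0.602 to 1.21 in WT and 2.14 to 2.99 in KO. The part of these cells, and of the differences in macrophage and osteoclast markers, in the values of the members was not tested. In RNA from whole cultures, fewer cells that express a gene and less of its RNA per cell cannot be told apart.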

How the data were processed

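The authors deposited 1 table of estimated counts per gene for 3 WT and 3 KO libraries, not normalized. The submitters' processing notes name fastp, HISAT2, StringTie, RSEM and GRCm39, with no versions. Libraries were made with a stranded mRNA kit, and the strand setting of the counting is not given in the sources used here. The authors' mean columns were not used.

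Estimated counts, of which 25.1% to 26.6% of the detected values in a library were not whole (tolerance 1e-06), were rounded. In R 4.3.3, edgeR 4.0.16 (filterByExpr by genotype, TMM, glmQLFit with legacy = FALSE, glmQLFTest, no covariate) was the test, with Benjamini-Hochberg adjustment over 13428 genes. The study writes its limit of 1.3 for log2 fold changes, and it was read here as a fold change. DESeq2 1.42.0 and limma-voom 3.58.1 were alternatives. An exact permutation test of 3 against 3 cannot go below 0.1, so none is given. The common biological coefficient of variation was 0.142, and 3 counts are 0.150 to 0.173 CPM. Intervals of fold changes are 95% and come from edgeR's standard errors.

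The GC correction fits a natural spline (5 degrees of freedom) of each library's log deviation from the mean on GC content and enters as offsets. GC content, length, exons and positions come from the longest transcript or gene in GENCODE M21 (GRCm38), which is not the build of the counts. Promoter windows (250 bases before to 50 after the start) are RefSeq's on GRCm38.p6. The scripts' fits were tested on simulated counts.

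The members and lists were chosen with earlier results of these data known. The text names all members, lincRNA-EPS, and in each list the 3 genes with the smallest unadjusted p-value. For 1 list, 1 of these genes is not reported here. Other genes were named after their values were seen.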

Additional observations from a re-analysis of the deposited data

How the results depend on the processing

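With 3 libraries per genotype and a GC trend that differs between libraries and between the genotypes, small differences are poorly resolved. Genes called among all tested were 126 with DESeq2 (56 higher, 70 lower), 3 with the GC correction in edgeR and 338 with both (176 higher, 162 lower), against 1. With each library left out they were 0 to 2, and with the GC correction 1 to 89, the most without KO replicate 1 and 4 without KO replicate 3. With the GC correction and a limit of 0.05 on the adjusted p they were 118 with and 132 without the fold change limit. With the limit of 1.3 on the log2 scale, added after the data were seen, they were 1 in edgeR with or without the GC correction and 4 in DESeq2 in either form, and 0 members and 0 pathway genes were called. Members called were 0 except 1 with DESeq2 and the GC correction, and, in alternatives chosen after the data were seen, 1 with the GC correction without KO replicate 1, 1 with the GC correction at an adjusted p-value under 0.05, and 2 with the GC correction at that adjusted p without the fold change limit. Without the GC correction, 0 members passed at 0.05. The single call was *Slc7a11* each time, at -0.45 with DESeq2 and -0.54 without KO replicate 1 (adjusted p = 0.00810). Across GC-corrected fits that leave out a library its adjusted p went from 0.00810 to 0.183. Pathway genes called were 1 with DESeq2, 2 with DESeq2 and the GC correction, and, with the GC correction and the limit of 0.05, 2 with and 4 without the fold change limit. The median of the members, -0.087, was negative in all of these fits. With a library left out it was -0.11 to -0.039, nearest 0 without KO replicate 3, and with the GC correction -0.095 to -0.031. It moved by more than its spread between replicates (0.049) only without WT replicate 2 under the GC correction (-0.031).

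Signs turned for 5 members, none of them called. With the GC correction in edgeR, with the replicate block as well, and in DESeq2, *Gss* was at -0.013, -0.0098 and -0.013, *Acsl4* at -0.10 each time, *Lpcat3* at 0.019, 0.018 and 0.018, and *Aifm2* at 0.061, 0.062 and 0.061. With a library left out under the GC correction, the turned values were -0.090, -0.049, -0.0097 and -0.0044 for *Gss*, -0.12 to -0.089 for *Acsl4* (-0.11 without KO replicate 1 or 3), 0.0077 to 0.041 for *Lpcat3* (0.023 without WT replicate 2) and 0.0012 to 0.10 for *Aifm2* (0.036, 0.057, 0.074 and 0.089 in between). Without that correction, *Gss* turned without WT replicate 3 (-0.046) or KO replicate 2 (-0.0051), with up to 0.079 otherwise, and *Gpx4* without WT replicate 2 (-0.012) or KO replicate 2 (-0.046), with up to 0.14 otherwise. Of 230 member values, 191 kept direction and side. The cause was not tested.

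The replicate numbers were not used to pair the libraries in the main test. Same-numbered deviations had r = -0.281, 0.114 and 0.224, and pairing required every r to exceed 0.1. These deviations still held the GC trend of the libraries, so they cannot show whether same-numbered cultures were handled together. With the replicate block the unadjusted p-value of *Gclc* was no longer under 0.05, 1 gene was called, 0 members and 0 pathway genes, and the median of the members was -0.088. With the GC correction and the block, *Slc7a11* and *Gclm* had adjusted p = 0.0742 and 0.0854 in edgeR, both above 0.05, and 0 members were called.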
